A study of Mus musculus with 9 samples.

Results

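Array signals of 8 mouse genes for secreted proteins were examined: Afp, F7, F10, F5, Hp, Serpinf1, Slpi and Penk, most of which encode proteins that the liver releases into blood plasma. The genes were chosen from measured values of these same arrays, with their differences between groups already known, so their values are a description and carry no p-value. They are covered by 16 of the 22690 probe sets of the array, and every probe set annotated to them was taken, whatever its signal. RNA from 3 kinds of myeloid cell had been hybridised to Affymetrix arrays, 3 arrays for each kind. Granulocyte-macrophage progenitors (GMP) are marrow cells committed to granulocytes and macrophages, and the GMP arrays carry RNA of normal cells. L-GMP are cells resembling GMP that were isolated from leukemic mouse marrow; the series names MLL-AF9, a fusion of Kmt2a and Mllt3, as the transforming oncogene. The titles of the L-GMP-derived arrays are a code, and their source is given as L-GMP. They were taken to hold the cells obtained by growing L-GMP in vitro, the only kind in the design text that no other array represents, and every value given for them rests on that reading. Strain, age and sort gate are not in the labels. Whether replicate arrays stem from separate mice or cultures is not in the labels either, so p-values measure the spread between arrays, which may be technical. In bulk RNA of this kind, fewer cells that express a gene and less RNA per cell cannot be told apart.

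Clotting proceeds through serine proteases that activate each other on membranes. Factor VII with tissue factor activates factor X, and factor X with its cofactor, factor V, activates prothrombin. Plasma also carries protease inhibitors and binding proteins such as haptoglobin, which captures free hemoglobin. Hepatocytes make most of these proteins and transcribe them under liver-enriched factors of the HNF1, HNF4 and C/EBP families, but macrophages, megakaryocytes and maturing neutrophils also make some of them. Alpha-fetoprotein is the main serum protein of the fetus and is shut off in the adult liver.

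Promoter windows of 250 bases before the annotated start were found for 6 of the 8 genes in the RefSeq table (GRCm38.p6). Those of Afp, Serpinf1, F7 and F10 are shown because Afp and Serpinf1 were both lower in L-GMP than in the other groups, while F7 and F10 are neighbours with different patterns. Each window runs 5′ to 3′ in the direction of its gene. It lies at chr5:90490464-90490713 on the plus strand for Afp, at chr11:75422624-75422873 on the minus strand for Serpinf1, at chr8:13025784-13026033 on the plus strand for F7 and at chr8:13037058-13037307 on the plus strand for F10. Capitals mark matches to motif letters that were looked for on both strands.
Afp: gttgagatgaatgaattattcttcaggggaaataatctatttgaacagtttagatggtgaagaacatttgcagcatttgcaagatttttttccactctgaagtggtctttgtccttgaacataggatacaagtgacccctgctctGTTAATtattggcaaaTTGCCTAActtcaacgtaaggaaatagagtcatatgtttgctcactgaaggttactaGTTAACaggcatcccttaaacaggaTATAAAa
Serpinf1: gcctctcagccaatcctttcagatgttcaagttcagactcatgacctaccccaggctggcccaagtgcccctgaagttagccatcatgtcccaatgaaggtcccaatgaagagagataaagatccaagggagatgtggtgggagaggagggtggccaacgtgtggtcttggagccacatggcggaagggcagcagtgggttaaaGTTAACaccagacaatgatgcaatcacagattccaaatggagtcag
F7: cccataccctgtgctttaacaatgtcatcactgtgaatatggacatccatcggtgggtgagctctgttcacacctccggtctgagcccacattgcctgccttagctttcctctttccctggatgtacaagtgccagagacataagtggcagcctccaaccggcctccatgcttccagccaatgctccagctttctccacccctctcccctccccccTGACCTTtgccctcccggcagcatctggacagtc
F10: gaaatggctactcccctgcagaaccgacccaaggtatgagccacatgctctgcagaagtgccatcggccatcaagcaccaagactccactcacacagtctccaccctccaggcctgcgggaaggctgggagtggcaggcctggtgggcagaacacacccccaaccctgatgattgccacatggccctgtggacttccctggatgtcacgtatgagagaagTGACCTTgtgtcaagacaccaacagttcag

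The motifs searched were GTTAAT and GTTAAC, forms of the HNF1 half-site, TGACCTT, a nuclear receptor half-site, TTGCNNAA, a C/EBP motif, and the TATA box TATAAA. The Afp window held GTTAAT at 105 to 100 bases before the start, TTGCNNAA at 89 to 82, GTTAAC at 32 to 27 and TATAAA at 7 to 2. Serpinf1 held GTTAAC at 46 to 41 bases before the start. TGACCTT stood at 34 to 28 bases before the start in F7 and at 30 to 24 in F10. Slpi held TTGCNNAA on the strand opposite to the gene, 241 to 234 bases before its start, and the F5 window held none of the 5 motifs. Such letters are common: of 32851 mouse windows of this length, 6.43% held GTTAAT, 2.56% GTTAAC, 4.08% TGACCTT, 9.56% TTGCNNAA and 12.4% TATAAA. The matches describe these sequences only.

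Signals are in the linear units the authors deposited and compare arrays for the same probe set, not different genes. Values below 62.4, the 25th percentile of all signals, were set to that floor before log2 was taken, and a probe set entered the tests if it exceeded 111 on at least 3 of the 9 arrays. A fold against a group with arrays below the floor is written as at least that size, and it depends on the floor. Log2 signals of replicate arrays correlated at 0.977 to 0.991 among GMP and among L-GMP. The L-GMP-derived replicate 1 stood apart, at 0.958 and 0.964 with the other arrays of its group against 0.989 between those, and differences with that array left out are given below. Summed GMP markers ran from 36677 to 37371 in GMP, 27496 to 34824 in L-GMP and 25774 to 30340.1 in L-GMP-derived cells, where Cd34 was below the floor on all 3 arrays. Elane, Prtn3 and Ctsg were bright in every group and made up a large part of these sums. In the same order, Kit averaged 816 ± 41.7, 657 ± 99.4 and 93.9 ± 23.5, Mpo 9366 ± 129, 6028 ± 1199 and 1442 ± 1853, and Cebpa 1169 ± 199, 339 ± 71.7 and 825 ± 183. The 3′ to 5′ ratio of beta-actin probe sets, a measure of RNA integrity, was 6.99 to 8.12 in GMP, 4.87 to 5.56 in L-GMP and 6.93 to 7.18 in L-GMP-derived cells. All L-GMP arrays were thus below both other groups in this ratio. The ratio of Gapdh overlapped between the groups, at 7.08 to 8.77, 6.17 to 11.6 and 5.86 to 9.22. The part of RNA integrity in the differences was not tested.

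Factor VII (F7), the protease that starts clotting together with tissue factor, was above the floor almost solely in the L-GMP-derived cells. The GMP arrays gave 19.7, -0.0153 and 13.5, the L-GMP arrays 29.4, 51.8 and 69.5, and the L-GMP-derived arrays 2835, 859 and 955. No value of the derived cells overlapped the other groups, and the high value of 2835 belongs to the replicate that stood apart. On the log2 scale the L-GMP-derived cells were above GMP by 4.41 ± 0.36 (SE, n = 3 arrays a group) and above L-GMP by 4.36, folds of at least 21.2 and at least 20.5. Without L-GMP-derived replicate 1 these differences were 3.86 and 3.81. With the floor at the 10th or 40th percentile (28.1 or 111) the fold over GMP was at least 47.1 or at least 11.9. The single F7 probe set entered the tests only through the L-GMP-derived arrays. F3, which encodes tissue factor, was below the floor on all 9 arrays.

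Factor X (F10), the protease at which the branches of clotting meet, was higher in both leukemic groups than in GMP. Its brightest probe set gave 259, 277 and 279.7 in GMP, 1625, 1142 and 1210.3 in L-GMP, and 1996, 1733 and 1994 in L-GMP-derived cells. Each group lay wholly above the one before it, although the lowest derived array and the highest L-GMP array were close. L-GMP exceeded GMP by 2.27 ± 0.14 log2 units (SE, 4.82-fold), L-GMP-derived cells exceeded GMP by 2.81 (7.01-fold), and the derived cells exceeded L-GMP by 0.54 (1.45-fold). The group means of the other probe sets had the same order: 1418993_s_at averaged 176 ± 23.4, 619 ± 159 and 875 ± 124 (SD, n = 3) in GMP, L-GMP and L-GMP-derived cells, and 1418992_at averaged 44.8 ± 6.92, 162 ± 43.5 and 246 ± 46.1. On both of these, however, the L-GMP and L-GMP-derived arrays overlapped. Both also had their lowest derived signal on replicate 1, at 772 and 200, where the brightest probe set did not. Correlation with the brightest probe set over the 9 arrays was 0.99 and 0.97.

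F7 and F10 lie next to each other in the RefSeq annotation, followed by Proz, which encodes the related plasma protein Z. Proz was below the floor on all 9 arrays, averaging 20.9 ± 4.11 in GMP, 25.1 ± 3.58 in L-GMP and 31.5 ± 2.92 in L-GMP-derived cells. Of the 3 neighbours, F10 was thus high in both leukemic groups, F7 in the derived cells and Proz in no group.

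Factor V (F5), the cofactor of factor X, was high in L-GMP and low elsewhere. On the brighter probe set the L-GMP arrays gave 811, 399 and 432, the GMP arrays 62.5, 12.2 and 47.7, and the L-GMP-derived arrays 67.3, 155 and 103. The groups did not overlap, but the lowest derived array was close to the highest GMP array. L-GMP was above GMP by 3.05 ± 0.31 log2 units (SE, at least 8.31-fold) and 5.06-fold above the L-GMP-derived cells. With the floor at 111, the first of these folds was at least 4.65. Derived cells against GMP differed by 0.71, and by 1.02 without L-GMP-derived replicate 1. The second probe set, 1418907_at, gave 791, 337 and 312 in L-GMP against 27.1 to 45.0 in GMP and 1.48 to 166 in derived cells, where the last 2 groups overlapped. Both F5 probe sets entered the tests only with the L-GMP arrays. No GMP array exceeded 111 on either, and 1 derived array did on the brighter and 2 on the second. Megakaryocytes also make factor V: the 7 of 9 megakaryocyte markers with a probe set summed to 894 to 1029 in GMP, 866 to 1182 in L-GMP and 618 to 763 in derived cells, with Itgb3 and Ppbp below the floor on every array. Among these markers Gp1bb had its highest signals in L-GMP, as F5 did, at 83.8 ± 43.9 in GMP, 269 ± 31.9 in L-GMP and 137 ± 64.6 in derived cells. The mean of the dimmer Gp5 was also highest there. Itga2b (341 ± 67.6, 292 ± 138 and 84.6 ± 5.42 in the same order), Pf4 (255 ± 18.5, 231 ± 42.1 and 222 ± 26.4) and Gp9 had their highest means in GMP. The part of such cells in the F5 signals was not tested.

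**Figure D1:**
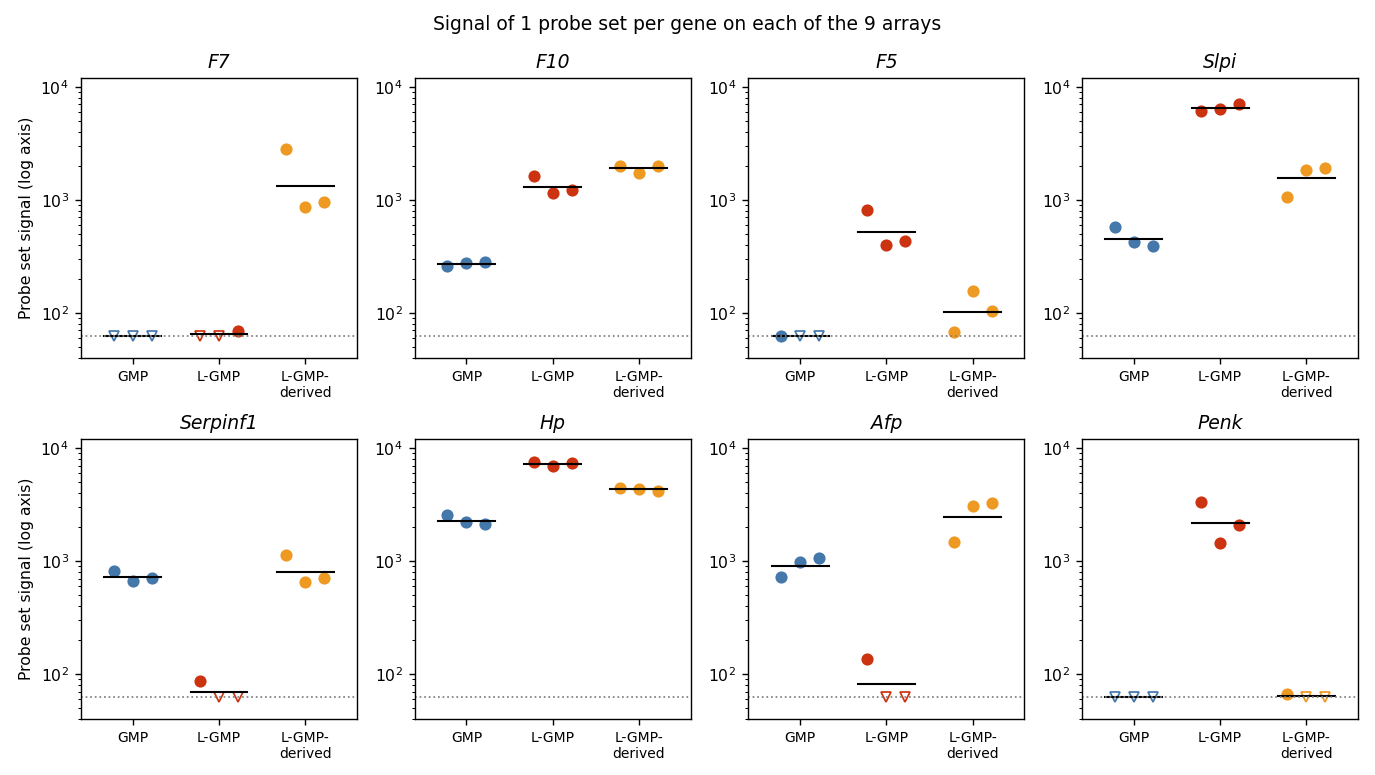
Signal of the brightest probe set of each gene on the 9 arrays, on a log axis, by group. Filled circles are single arrays, open triangles are arrays below the floor drawn at the floor (dotted line, 62.4), and black bars are means of log2 signals after the floor. F7 stands high in L-GMP-derived cells, F5 and Penk in L-GMP, and Afp and Serpinf1 in GMP and L-GMP-derived cells.

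Slpi encodes a secreted inhibitor of neutrophil elastase and cathepsin G that epithelia and phagocytes make. The GMP arrays gave 571, 422 and 388, the L-GMP arrays 6087, 6409 and 7007, and the L-GMP-derived arrays 1064, 1821 and 1923. All L-GMP arrays were above all derived arrays, and these were above all GMP arrays. L-GMP exceeded GMP by 3.84 ± 0.21 log2 units (SE, 14.3-fold), and L-GMP-derived cells exceeded GMP by 1.77 (3.42-fold). L-GMP was 4.19-fold above the derived cells, a difference of -2.07 for derived cells minus L-GMP. Without L-GMP-derived replicate 1, the lowest of its group, the difference from GMP was 2.04 and that from L-GMP -1.79. The proteases that Slpi blocks were bright in every group: Elane averaged 6419 ± 350.1 in GMP, 6734 ± 1204 in L-GMP and 6162 ± 467 in derived cells.

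Hp encodes haptoglobin, which hepatocytes secrete in the acute phase response and which maturing neutrophils store in granules. It gave 2561, 2203 and 2109 in GMP, 7460.2, 6976 and 7311 in L-GMP, and 4394, 4318 and 4212 in L-GMP-derived cells. The 3 groups were wholly separate, in the same order as for Slpi, and the spread within them was small (coefficient of variation 10.4%, 3.42% and 2.12%). L-GMP exceeded GMP by 1.67 ± 0.07 log2 units (SE, 3.17-fold), the derived cells exceeded GMP by 0.92 (1.89-fold), and L-GMP exceeded the derived cells 1.68-fold.

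Markers of mature myeloid cells also differed between the groups and are set beside Slpi and Hp. The 8 of 9 neutrophil markers with a probe set summed to 8983 to 22602 in GMP, 17929 to 36712 in L-GMP and 962 to 8499 in L-GMP-derived cells, with Mmp9 below the floor on all arrays. The 8 macrophage markers summed to 6841 to 7811, 11392 to 12917 and 1963 to 2698 in the same order, with Mrc1 below the floor on all arrays. Both sums were lowest in the derived cells. Single macrophage markers differed in this: Csf1r averaged 5767 ± 507 in GMP, 4673 ± 476 in L-GMP and 535 ± 247 in derived cells, whereas Adgre1 (375 ± 13.5, 3072 ± 338 and 984 ± 505) and Cd68 (98.0 ± 7.57, 372 ± 11.8 and 214 ± 34.4) had the same order of groups as Slpi and Hp, as did the means of C1qb. The part of such cells in the signals of Slpi and Hp was not tested.

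Serpinf1 encodes a serpin that no longer inhibits proteases and acts as a secreted anti-angiogenic and neurotrophic factor. The brighter of its probe sets, 1416168_at, gave 818, 663 and 712 in GMP, 87.4, 47.9 and 60.9 in L-GMP, and 1135, 646 and 712 in L-GMP-derived cells. GMP and derived arrays overlapped, and all L-GMP arrays were far below both. L-GMP minus GMP was -3.38 ± 0.22 log2 units (SE, at least 10.4-fold lower), and L-GMP was at least 11.5-fold below the derived cells. The derived cells differed from GMP by 0.15, and by -0.10 without L-GMP-derived replicate 1. A second probe set, 1453724_a_at, showed no such pattern: it ran from 164 to 224 over all 9 arrays, the groups overlapped, and its correlation with the first was 0.28. Averaged over both probe sets, the fold between GMP and L-GMP was 3.35 and that between derived cells and L-GMP 3.53.

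Afp, which encodes alpha-fetoprotein, was also lowest in L-GMP on its brightest probe set, 1416645_a_at. The GMP arrays gave 729, 976 and 1070.0, the L-GMP arrays 136, 18.5 and 12.3, and the L-GMP-derived arrays 1472, 3057 and 3262. The 3 groups did not overlap, and L-GMP replicates 2 and 3 were below the floor. L-GMP minus GMP was -3.50 ± 0.35 log2 units (SE, at least 11.3-fold lower), and the derived cells were above GMP by 1.42 (2.68-fold) and above L-GMP by 4.92 (at least 30.3-fold). The fold over L-GMP was at least 51.5 or at least 20.6 with the floor at the 10th or 40th percentile. Without L-GMP-derived replicate 1 the derived cells were 1.79 above GMP and 5.29 above L-GMP.

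Afp has 5 probe sets, and they did not all behave alike. The brightest probe set correlated at 1.00 with 1436881_x_at and 1436879_x_at over the 9 arrays. These averaged 933 ± 148 and 870.2 ± 179.5 (SD, n = 3) in GMP, 51.4 ± 65.1 and 45.2 ± 51.8 in L-GMP, and 2535 ± 973 and 2426 ± 907 in derived cells. The suffix _x_at marks probe sets that can also bind other transcripts. Another, 1416646_at, was below the floor on all GMP and L-GMP arrays and gave 94.3, 197 and 213 in the derived cells, while 1436880_at stayed between 74.4 and 117 on all arrays with overlapping groups. Neither of these dim probe sets passed the filter.

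Other liver genes are set beside Afp. Alb and Afm flank Afp in the RefSeq annotation, and Alb, which encodes albumin, averaged 102 ± 15.2 in GMP, 104 ± 10.8 in L-GMP and 92.9 ± 9.87 in derived cells, too dim to be tested. The 10 hepatocyte markers summed to 2326 to 2558 in GMP, 2029 to 2398 in L-GMP and 2244 to 2522 in derived cells. Apoc3, Ahsg and Hpx were below the floor on all 9 arrays, and 6 of the 10 exceeded 111 on at least 1 array. Among the latter, Apoa1, Ttr, Hnf4a and Cps1 exceeded 111 on all 9 arrays. Apoa1 had the highest signal of the list, averaging 1261.6 in GMP, 1080.2 in L-GMP and 1193.7 in derived cells, and so made up a large part of the sums. The sums overlapped between all groups. The signals of Afp did not overlap on its brightest probe set but did on 1436880_at. The part of hepatocyte RNA in the Afp signals was not tested.

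**Figure D2:**
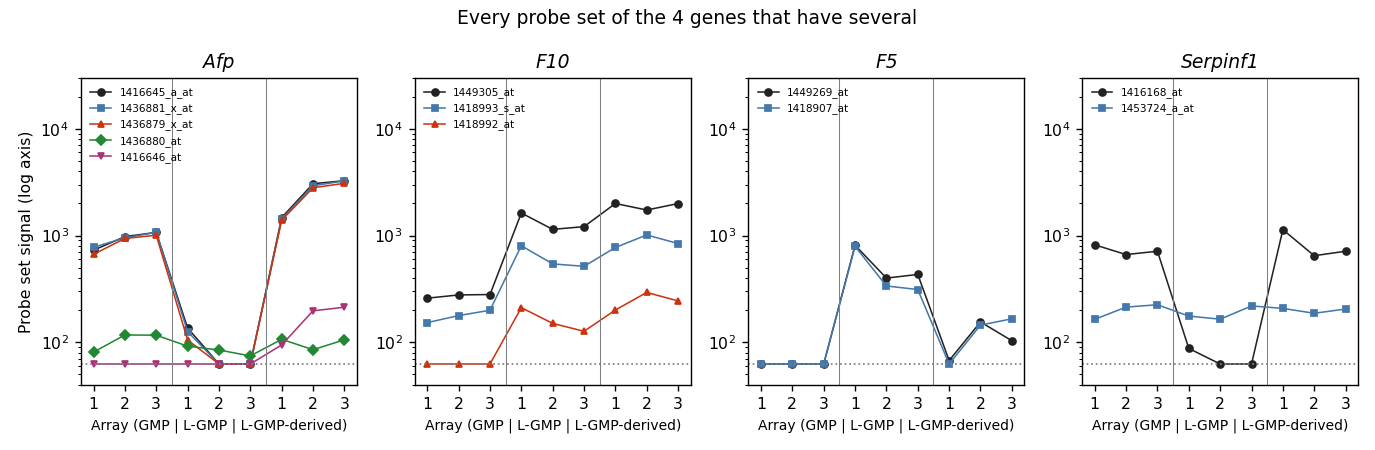
Signal of every probe set of Afp, F10, F5 and Serpinf1 on the 9 arrays, on a log axis, with values below the floor drawn at the floor (dotted line, 62.4); lines join the arrays of a probe set and carry no order in time. Probe sets of F10 and of F5 have group means in the same order, 1453724_a_at of Serpinf1 stays between 164 and 224, and 3 probe sets of Afp nearly coincide.

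Penk encodes preproenkephalin, the precursor from which enkephalin opioid peptides are cut. Its L-GMP arrays gave 3328, 1451 and 2106, its GMP arrays -13.7, -13.4 and -19.6, and its L-GMP-derived arrays 66.4, 30.9 and 19.2. All L-GMP arrays stood far above every other array, and 5 of the other 6 arrays were below the floor. L-GMP exceeded GMP by 5.12 ± 0.24 log2 units (SE, at least 34.7-fold) and the derived cells by 5.09 (at least 34.0-fold). With the floor at the 10th or 40th percentile the fold over GMP was at least 77.1 or at least 19.4. Its single probe set entered the tests only through the L-GMP arrays. Stromal markers, which mark cells that can also make Penk and Serpinf1, summed to 1279 to 1488 in GMP, 1768 to 2365 in L-GMP and 871 to 1015 in derived cells. Pdgfrb had the highest signal among them, at 727 ± 69.5, 1362 ± 298 and 344 ± 82.9, and so made up a large part of the sums. The dimmer Col1a1, Col1a2 and Lepr also had their highest means in L-GMP. Dcn, Col3a1 and Pdgfra had theirs in GMP and Cxcl12 in derived cells, and Lum was below the floor on all arrays. The part of stromal cells in the Penk signals was not tested.

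Set side by side, the members fell into several orders of level. On the brightest probe set of each, L-GMP was the highest group for Penk, F5, Slpi and Hp and the lowest for Afp and Serpinf1. The derived cells were the highest for F7, F10 and Afp. The counts that follow take the same probe sets. The second probe set of Serpinf1 was not called in any comparison. For F10, 1418993_s_at was not called between derived cells and L-GMP, and on 1436880_at of Afp the groups overlapped. By the linear model of all probe sets, limma at a Benjamini-Hochberg adjusted p of 0.05, 5 of the 8 genes were called higher and 2 lower in L-GMP than in GMP, where 25.9% of all tested genes were called in either direction. Between L-GMP-derived cells and GMP 5 were called, each of them higher, against 24.1% of all genes, and between derived cells and L-GMP 4 were called higher and 4 lower, against 30.7%. Since the genes were selected on these contrasts, nothing is read from these counts. The comparisons share arrays and are not independent of each other. The median absolute log2 difference of the members, on the brightest probe set of each, was 3.22, 1.17 and 2.93 in the 3 comparisons. Over all tested probe sets it was 0.235, 0.229 and 0.251. Nothing is read from these medians either, as the genes were selected on the same contrasts. Genes not called were F7 in L-GMP against GMP, and F5, Serpinf1 and Penk in derived cells against GMP.

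**Figure D3:**
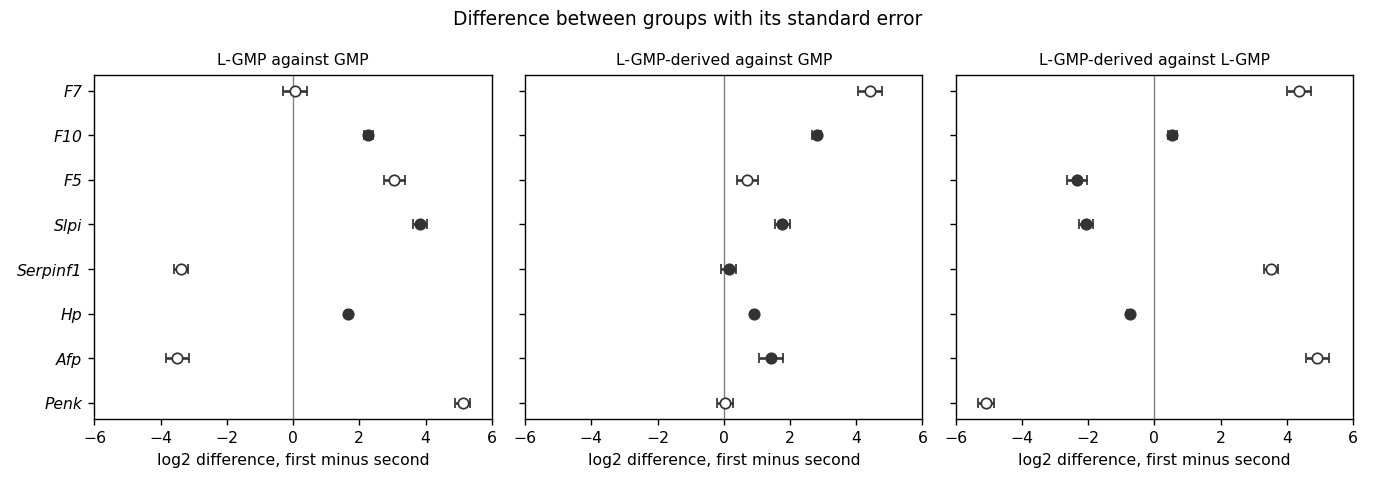
Log2 difference (first group minus second) of the 8 genes in each comparison, for the brightest probe set of each, with standard errors as bars. Open circles mark differences whose lower group has arrays below the floor, so that their size depends on it. Penk and F5 lie on the positive side for L-GMP against GMP and near 0 or slightly above for derived cells against GMP. L-GMP is the first group against GMP and the second against derived cells. Genes highest or lowest in L-GMP therefore change sides between these comparisons: Penk, F5, Slpi, Hp, Afp and Serpinf1.

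Patterns over the 9 arrays were compared by Pearson correlation of log2 signals, as a description of points that fall into 3 groups of 3. The signals were taken after the floor, so arrays below it hold equal values. Most arrays were below it for F7 outside the derived cells and for Penk outside L-GMP. Their high correlations thus rest largely on such equal values and on the arrays of that group. F5 was also below the floor on 2 of the 3 GMP arrays, and Afp and Serpinf1 on 2 of the 3 L-GMP arrays, which bears on their correlations too. The closest genes named below were picked as the highest of all tested genes, so their high values follow in part from that choice. Among the members, Hp and Slpi correlated at 0.98, F5 and Penk at 0.95, and Afp and Serpinf1 at 0.93, whereas Serpinf1 and Penk ran opposite at -0.97. F7 and F10 correlated at 0.64. Of the other tested genes, those closest to Penk were Dsp, which encodes desmoplakin (0.991), Prg3 (0.988) and Flna (0.986). Closest to F7 were Trib3, which encodes a pseudokinase (0.999), the amino acid transporter gene Slc1a4 (0.997) and Pfkp, which encodes a phosphofructokinase (0.993). Trib3 averaged 8.51 ± 2.08 in GMP, 4.46 ± 3.12 in L-GMP and 1319 ± 886 in derived cells, so its spread among derived arrays was wide like that of F7. Closest to Afp were Ppp1r14b (0.992), Mcrip2 (0.992) and the lectin gene Clec4e (0.991), and closest to Serpinf1 were Exosc1 (0.990), Gpam (0.987) and Gramd3 (0.984). F10 was nearest to Grina (0.990), the homeobox gene Hoxa10 (0.989) and Mylk (0.989), and F5 to Lamtor4 (0.989), Naip2 (0.989) and Flot2 (0.986). Hp was nearest to Lamp1, a lysosomal membrane protein gene (0.993), Baz2b (0.993) and Tyrobp, a myeloid signalling adaptor gene (0.990), and Slpi to Tyrobp (0.993), Taldo1 (0.990) and Cd68 (0.988).

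Other genes of the pathways to which the members belong were taken from 8 lists. Of 209 genes, 184 had a probe set named for them alone and 99 passed the filter. Of these 99, limma called 14 higher and 10 lower in L-GMP than in GMP, 11 higher and 14 lower in derived cells than in GMP, and 15 higher and 20 lower in derived cells than in L-GMP. These shares, 24.2%, 25.3% and 35.4%, are near those of all tested genes, and the median log2 differences of 0.03, -0.08 and -0.11 lay beside -0.0075, 0.0044 and -0.0040 over all genes. Of the calls, 18 of 24, 15 of 25 and 19 of 35 held under each of the 18 alternatives, or those of them in which the gene passed the filter.

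Most of the remaining clotting genes were dim. Of 29 such genes 19 failed the filter, among them the fibrinogen genes Fga, Fgb and Fgg, F8, F9 and F11, the antithrombin gene Serpinc1, and Ggcx, the carboxylase that factors VII and X need to bind membranes. F2, which encodes prothrombin, gave 206 ± 6.03 in GMP, 217 ± 4.58 in L-GMP and 201 ± 16.1 in derived cells and was not called in any comparison. In L-GMP against GMP 2 genes rose and 3 fell. Thbd, which encodes the anticoagulant receptor thrombomodulin, rose from 297 ± 37.8 to 1312 ± 290.4 (SD, n = 3; 4.36-fold, limma adjusted p = 1.77e-04) and Tfpi2, an inhibitor gene, rose 3.63-fold (limma adjusted p = 4.96e-04). The gene of tissue factor pathway inhibitor, Tfpi, which blocks factors VII and X, fell from 2282 ± 129.9 to 860.3 ± 289.8 (2.76-fold, limma adjusted p = 7.13e-04; 1.60-fold as the mean over its probe sets). F13a1, the subunit of factor XIII that myeloid cells make, fell from 4331 ± 328 to 1197 ± 130.0 in L-GMP (3.63-fold, limma adjusted p = 0.00119).

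Derived cells against GMP had 1 clotting gene higher and 1 lower. F13a1 was 24.6-fold lower, at 194 ± 109 (limma adjusted p = 2.71e-06). Mcfd2, whose product with that of Lman1 carries factors V and VIII out of the endoplasmic reticulum, was 2.18-fold higher (limma adjusted p = 5.98e-05). Against L-GMP, 3 rose and 3 fell: Mcfd2 (2.26-fold, limma adjusted p = 3.99e-05) and Tfpi (2.04-fold, 0.00494) were higher and Thbd (4.75-fold), Tfpi2 (3.49-fold) and F13a1 (6.77-fold) were lower. As the mean over its probe sets Tfpi was 1.28-fold higher, with an adjusted p of 0.0636. The remaining call, Lman1, was 1.24-fold higher with an adjusted p of 0.019 by limma, which was 0.0713 without L-GMP-derived replicate 2, 0.0728 without replicate 3 and 0.0579 without L-GMP replicate 1.

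Fibrinolysis genes and receptors for clotting proteases had 9 tested members, of which 1 rose and 1 fell in L-GMP. F2r, which encodes the thrombin receptor PAR1, was below the floor on all L-GMP arrays and gave 355 ± 50.0 in GMP, at least 5.65-fold higher (limma adjusted p = 0.006; at least 3.17-fold with the floor at 111). Plgrkt, a plasminogen receptor gene, rose 2.11-fold (limma adjusted p = 8.42e-04). In derived cells against GMP 3 rose and 1 fell; the count was 2 without GMP replicate 1, 1 without L-GMP-derived replicate 2 and 1 without L-GMP-derived replicate 3. The fall was that of S100a10, from 2577 ± 131 to 909.9 ± 223 (2.89-fold, limma adjusted p = 0.00211). F2r in derived cells was 591 ± 393, which did not differ from GMP by the test (limma adjusted p = 0.656), but without L-GMP-derived replicate 1 it was 2.30-fold higher (limma adjusted p = 1.82e-04). Against L-GMP 4 rose and 2 fell in derived cells, and 3 were called with no filter on dim probe sets.

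Among 17 tested protease inhibitors related to Slpi and Serpinf1, 5 rose and 1 fell in L-GMP. Stfa3, a stefin gene, was below the floor on all GMP arrays and 474 ± 428 in L-GMP (at least 5.90-fold, limma adjusted p = 0.002), with a fold of at least 3.30 or at least 13.1 with the floor at the 40th or 10th percentile. Cst7, which encodes cystatin F, fell from 1049 ± 39.4 to 321 ± 73.3 (3.32-fold, limma adjusted p = 3.74e-05). Cst3, which encodes the secreted inhibitor cystatin C, rose 1.64-fold (limma adjusted p = 0.00239). In derived cells against GMP 2 rose and 3 fell, and 3 were called without GMP replicate 3. Wfdc21, which shares with Slpi the WAP domain of small secreted inhibitors, fell from 1173 ± 477 to 129.8 ± 57.9 (9.36-fold, limma adjusted p = 0.0107, 0.0699 with no filter on dim probe sets), while Slpi was 3.42-fold higher there. Cstb, which encodes stefin B, rose from 2850.4 ± 105 to 4617 ± 361 (1.62-fold, limma adjusted p = 3.89e-05). Against L-GMP, 2 rose and 3 fell in derived cells, and 3 were called without L-GMP replicate 3; Cst7 was 1.96-fold higher (limma adjusted p = 0.00134).

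Of 36 hepatocyte genes 15 were tested. In L-GMP 1 rose and 1 fell, in derived cells against GMP 2 rose and 1 fell, and against L-GMP 1 rose and 2 fell. Apoc2, an apolipoprotein gene that macrophages also express, rose from 164 ± 19.6 in GMP to 473 ± 119 in L-GMP (2.83-fold, limma adjusted p = 3.34e-04) and 338 ± 63.6 in derived cells. Rbp4, which encodes the plasma carrier of retinol, was below the floor on all GMP arrays and gave 303 ± 28.0 in derived cells (at least 4.84-fold, limma adjusted p = 3.86e-05; at least 2.71-fold with the floor at 111). The count for L-GMP fell to 1 without any GMP array, as Apob then dropped out of the tested genes, and that for derived cells against L-GMP rose to 5 without L-GMP-derived replicate 1.

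Regulators of liver genes had 8 tested members. Hnf4a, a nuclear receptor gene of the liver, gave 289 ± 45.3, 306 ± 36.8 and 269.7 ± 10.8 in GMP, L-GMP and derived cells and was not called, with an adjusted p by limma of 0.398 to 0.707 over the comparisons. Foxa1, Foxa2 and Foxa3 failed the filter. Gata4 and Zbtb20 were the genes called in any comparison. Zbtb20 encodes a repressor of Afp in adult liver, and its signal was 138 ± 3.03 in GMP, 137 ± 16.6 in L-GMP and 93.6 ± 7.37 in derived cells. It was 1.48-fold lower in derived cells than in GMP (limma adjusted p = 0.0122, 0.0512 without GMP replicate 2). Between L-GMP and GMP it was not called (limma adjusted p = 0.939). The part of Zbtb20 in the Afp signals was not tested. In L-GMP the 1 call was a fall of Gata4 (1.43-fold, limma adjusted p = 0.0162), which was lost without GMP replicate 3 (0.0825) or L-GMP replicate 3 (0.0633). In derived cells against GMP it was 2, both lower, and 1 without GMP replicate 2. Against L-GMP the 1 call, Zbtb20, was lost without L-GMP replicate 3 (0.0116 against 0.0506).

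Acute phase and complement genes, the company of Hp, had 22 tested members. In L-GMP 4 rose and 2 fell; the count of 6 was 3 without GMP replicate 2, without GMP replicate 3 or without L-GMP replicate 3. Cfp, which encodes the complement activator properdin, rose from 59.1 ± 25.9 to 781 ± 234 (at least 10.9-fold, limma adjusted p = 6.48e-06; at least 6.79-fold with the floor at 111), and C1qb rose 2.70-fold (limma adjusted p = 0.00573; 1.77-fold as the mean over its probe sets). Masp1, a complement protease gene, fell 1.57-fold (limma adjusted p = 0.00133). In derived cells against GMP, Cfp rose at least 4.65-fold (limma adjusted p = 1.37e-04). The receptor gene of the acute phase cytokine interleukin 6, Il6ra, fell from 1064 ± 90.8 to 259 ± 103 (4.30-fold, limma adjusted p = 2.23e-04). These were the only calls in that comparison, and 4 genes were called without L-GMP-derived replicate 1. In derived cells against L-GMP 3 rose and 3 fell, among them Cfp (2.34-fold lower, limma adjusted p = 0.00416) and Il6ra (2.22-fold lower, limma adjusted p = 0.00651). Saa3, an acute phase gene, was 92.4 ± 17.0, 116 ± 16.9 and 126 ± 18.9 in the 3 groups and was not called.

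Opioid peptide genes and processing enzymes had 7 tested members. The other precursor genes, Pomc, Pdyn and Pnoc, failed the filter, as did the carboxypeptidase gene Cpe and the delta opioid receptor gene Oprd1. Pcsk1, whose product cuts prohormones, was 132 ± 15.3 in GMP, 129.7 ± 10.5 in L-GMP and 136 ± 26.1 in derived cells and was not called. In L-GMP, where Penk was high, the 1 call was Furin, a proprotein convertase gene, at 1567 ± 111 against 957 ± 88.3 (1.64-fold, limma adjusted p = 0.0138, 0.0503 without GMP replicate 2). Ctsl, which encodes a protease that can process proenkephalin, rose in derived cells from 376 ± 27.2 in GMP to 741 ± 23.2 (1.97-fold, limma adjusted p = 1.17e-04). In that comparison 2 rose and 2 fell, and 2 were called without GMP replicate 2 or without L-GMP-derived replicate 2. Against L-GMP 1 rose and 1 fell, Ctsl being 2.36-fold higher (limma adjusted p = 2.24e-05), and 1 was called without L-GMP replicate 2 or L-GMP-derived replicate 2.

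Neutrophil granule genes, among which Hp and Slpi are often counted, had 11 tested members. In L-GMP, where both were highest, the 1 call was a fall of Ctsg, which encodes cathepsin G (1.36-fold, limma adjusted p = 0.00207). The list median was 0.50 log2 units higher in L-GMP, against -0.0075 over all genes. Camp (3.51-fold higher, limma adjusted p = 0.0521) and Chil3 (3.59-fold higher, limma adjusted p = 0.0641) did not pass, but Camp was called higher under 7 and Chil3 under 4 of 18 alternatives. The count of 1 was 3 (2 higher) without GMP replicate 1, 5 (3 higher) without L-GMP-derived replicate 1 and 2 (1 higher) without L-GMP-derived replicate 2. Derived cells against GMP had 3 lower, Mpo (11.9-fold), Camp (at least 10.8-fold) and Chil3 (at least 7.68-fold), at limma adjusted p-values of 0.00407, 0.00248 and 0.00867. Without L-GMP-derived replicate 1 those folds were 25.4, 7.18 and 4.42. Mpo was 7.59-fold lower without L-GMP-derived replicate 3, Camp at least 7.14-fold lower without GMP replicate 1, and the adjusted p of Chil3 was 0.0607 with no filter on dim probe sets. Against L-GMP 1 rose and 5 fell in derived cells, with Camp at least 38.0-fold lower (limma adjusted p = 1.40e-04; 25.2-fold without L-GMP-derived replicate 1). Elane and Prtn3 were not called in any comparison, although Elane was in derived cells against L-GMP without L-GMP replicate 2 (limma adjusted p = 0.0441).

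**Figure D4:**
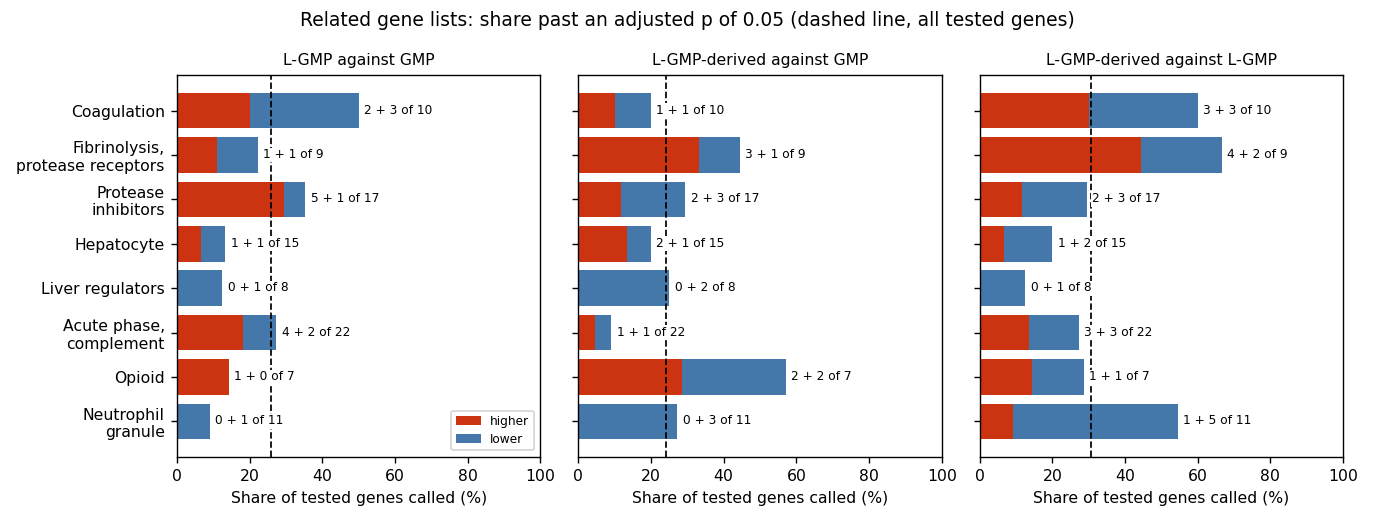
Share of the tested genes of each related list called at an adjusted p of 0.05, in percent, for the 3 comparisons. Red bars are genes higher and blue bars genes lower in the first group, labels give higher plus lower of tested, and the dashed line is the share over all tested genes (25.9%, 24.1% and 30.7%).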

How the data were processed

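RNA of 3 groups of 3 arrays was compared. The authors deposited 1 linear intensity (signal) per probe set and array, made with MAS5 (version 5) per the submitters' processing notes; background, summary and scaling were not given in the sources used here. No detection calls were used. Of 204210 deposited intensities 1917 (0.939%) were negative, which the signal algorithm of MAS5 does not give, so the summary step is unknown. Genes were named from the platform annotation: 20393 probe sets had 1 symbol, 691 several and 1606 none. The 8 genes and all lists were chosen with earlier results of these data known, and the promoter motifs after seeing the promoter sequences.

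Signals were raised to a floor of 62.4 (25th percentile) and log2 was taken. After leaving out 64 control probe sets, 14578 probe sets had signals above 111 (40th percentile) on 3 or more of the 9 arrays and entered limma 3.58.1 in R 4.3.3 (lmFit, contrasts.fit, eBayes with an intensity trend; 6 residual degrees of freedom), two-sided, with Benjamini-Hochberg adjustment over all tested probe sets at 0.05. Each gene was represented by its brightest tested probe set (mean log2 signal), for 8965 genes. Folds are between mean log2 signals. The model was tested on simulated data. Named genes were limited to the 8, up to 4 called genes with the largest change on each list in each comparison (or 2 where none was called), and the 3 genes closest to each member. Genes named outside this rule, as dim, as not called or as neighbours, were chosen after their values were seen. The number of arrays limits precision. Alternatives were the floor, the filter, array scaling, the intensity trend, the arrays fitted, the mean over probe sets, the replicate number as a block and leaving out each array in turn.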

Additional observations from a re-analysis of the deposited data

How the results depend on the processing

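The count of related genes called was 24, 25 and 35 for L-GMP against GMP, L-GMP-derived cells against GMP and derived cells against L-GMP. Over the alternatives it stayed within 1.5 times these values. Leaving out each array in turn gave 19 to 31, 20 to 30 and 27 to 39. With the replicate number as a block it was 25, 24 and 33. Whether the numbers pair the samples is not in the labels. Deviations of same-numbered arrays from their group means correlated at -0.31 to -0.13 over the 3 pairs of L-GMP and derived arrays. Over 4 pairs with GMP, numbers 2 and 3, they correlated at -0.28 to 0.17. The title of the other GMP array holds no number. With so few arrays in a group, these correlations cannot decide on pairing. Of 432 counts of single lists 397 were within 1.5 times, 10 higher and 25 lower. Of 336 member differences 23 moved by at least 1 SD, mostly with the floor, and 1 had the opposite sign (Serpinf1 in derived cells against GMP, without L-GMP-derived replicate 1). Signals below the floor have no order, so folds of Penk, F7, F5, Afp and Serpinf1 against such groups are bounds only.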
